A study of Homo sapiens with 10 samples.

Results

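In a study of the lines A549 and AD32, 7 of the 10 arrays fell into sets with low and high levels of mitotic transcripts within each line. The arrays were selected on their own values: for each, the deposited log2 signals of 5 mitotic genes (TOP2A, CCNB1, PLK1, AURKA and BUB1) were averaged, and an array with a mean below 8 was called low and one at or above 8 high. Of the 7 arrays, 3 were low (AD32 replicates 1 and 2 and A549 DMSO replicate 1) and 4 were high (AD32 replicate 3 and A549 DMSO replicates 2 to 4). Neither the labels nor the treatments name this split. It is a measured state of each array, so the differences between low and high arrays are described without a test.

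The study profiled lines that differ in their response to discodermolide, a marine polyketide that locks microtubules in their assembled form. A549 is an established human lung adenocarcinoma line, and its 4 arrays used here came from cells kept in 0.01% DMSO, the drug's solvent, and labelled sensitive. AD32, labelled resistant, was grown in 32 nM discodermolide and is represented by 3 arrays. The low and high states thus occur under each of these conditions. All cells were cultured in RPMI medium with fetal bovine serum, and total RNA was measured on Affymetrix arrays. The labels call the samples biological replicates without saying how they were grown apart, so the p-values measure only the spread between these samples. With 7 arrays, their number limits the precision. The other 3 arrays, 2 of A549 in 32 nM discodermolide (labelled senescent) and 1 of AD32 4E-BP1 in 0.01% DMSO (labelled sensitive), are given as values only.

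Dividing cells switch on their genes in waves. E2F factors, held back by retinoblastoma family proteins in resting cells, start the genes of DNA replication at the entry to S phase. A later wave in G2 and mitosis, driven by B-MYB, FOXM1 and the MuvB core proteins, supplies the mitotic kinases, kinetochores and spindle motors, and many of its promoters carry a short element called the CHR beside CCAAT boxes. In resting cells the DREAM complex, built from the same core with p130 and E2F4, keeps both waves low.

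Some arrays resembled arrays of another label more than their own. Over 24308 probe sets, AD32 replicate 3 had a Pearson correlation of 0.9813 with A549 DMSO replicate 2, against 0.9591 and 0.9649 with AD32 replicates 1 and 2. A549 DMSO replicate 1 had 0.9777 and 0.9764 with the discodermolide arrays, and 0.9561 to 0.9608 with the other DMSO arrays. A549 DMSO replicates 3 and 4 were nearly identical at 0.9973. The line labels of both high and low arrays nevertheless stood in genes that differ between the lines: MAGEB2, a cancer-testis gene, read 9.96, 10.09 and 10.19 on AD32 replicates 1 to 3 and 3.78 to 4.44 on A549 DMSO. The keratin gene KRT8 (12.67 to 13.73) was high on all 7 arrays, while EPCAM, an epithelial surface protein often used as a marker, lay under the arrays' lower quartiles at 3.30 to 3.86. The leukocyte gene PTPRC (2.77 to 3.20) was also under them, as were CD3D, LYZ, PECAM1 and KDR. The leukocyte gene CD14 (4.99 to 6.14) and the endothelial gene CDH5 (4.81 to 5.45) lay above them on all 7 arrays. CD3E lay above them on 5 of the 7 and VWF on 2. The quartile is a reference level and not a limit of detection. By the 2-fold rule given below, 0 of the 15 measured leukocyte and endothelial markers were counted as different between low and high arrays. Over all genes 4.51% were counted lower and 1.53% higher, so this 0 is near the background. Without AD32 replicate 3, 2 of the markers were counted higher.

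The 5 genes behind the split are described first, as values that chose the arrays. Levels are listed in the order of the replicate numbers, so the low arrays are replicates 1 and 2 of AD32 and replicate 1 of A549. PLK1, a kinase of mitotic entry and exit, read 5.82, 6.93 and 11.20 in AD32 and 7.56, 11.20, 11.07 and 11.11 in A549. BUB1, a spindle checkpoint kinase, read 4.75, 5.55 and 9.49 in AD32 and 6.36, 9.97, 9.89 and 9.88 in A549. In both genes each low array lay far under every high array of its line, and the high arrays of the lines were close together. CCNB1, the cyclin that activates CDK1 for mitosis, read 6.33, 8.21 and 11.40 in AD32 and 7.92, 11.04, 11.58 and 11.52 in A549. TOP2A, the topoisomerase that untangles sister chromosomes, read 5.65, 6.94 and 10.98 in AD32 and 8.90, 11.45, 11.42 and 11.35 in A549. AURKA, a spindle pole kinase, had the smallest fitted difference of the 5, with 6.40, 8.29 and 10.12 in AD32 and 8.28, 10.19, 10.76 and 10.81 in A549. The means of the 5 genes were 5.79, 7.18 and 10.64 in AD32 and 7.80, 10.77, 10.95 and 10.93 in A549. The member nearest the threshold from below was thus A549 DMSO replicate 1 at 7.80, the nearest from above AD32 replicate 3 at 10.64, and no array lay between them.

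**Figure D1:**
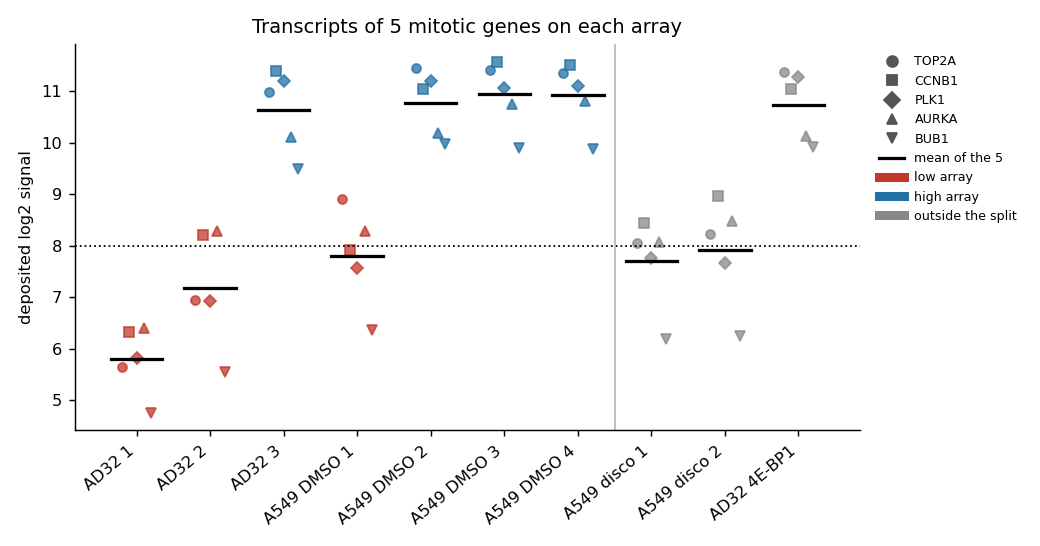
Deposited log2 signal (vertical axis) of TOP2A, CCNB1, PLK1, AURKA and BUB1 on each of the 10 arrays, with the mean of the 5 as a black bar and the threshold of 8 as a dotted line. Red arrays are low, blue arrays are high, and the 3 grey arrays were outside the split. The low means run from 5.79 to 7.80 and the high means from 10.64 to 10.95.

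For every gene a linear model with line as a covariate gave the fitted log2 difference, low minus high, with its standard error (SE, over 7 arrays). A gene was counted lower or higher where this difference was at least 1 in size, a 2-fold ratio of signal, and each low array lay beyond every high array of its own line. By this rule 824 of 18279 genes (4.51%) were counted lower and 279 (1.53%) higher, and the median difference over all genes was 0.05. The lower side also held the larger differences: 215 genes were at least 4-fold lower and 27 at least 4-fold higher. After a further quantile normalization the counts were 667 and 384, so the balance of the directions depends in part on scaling. Without AD32 replicate 3 they were 1293 and 516, and without A549 DMSO replicate 1 they were 843 and 476. Leaving out AD32 replicate 3, its line's 1 high array, leaves the difference within A549 alone, and leaving out A549 DMSO replicate 1 leaves that within AD32 alone. In these data, fewer cells in a phase and less transcript per cell cannot be told apart.

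The cell cycle lists held 282 measured genes, of which 218 (77.3%) were counted lower and 0 higher. These made up 26.5% of the 824. The lists contain the 5 genes that chose the arrays and many that are known to vary with them, so the share describes the split and is not support for it. The levels of such genes on the low arrays often neared the arrays' lower quartiles (4.77 to 4.94). No detection call came with the values, so folds at such levels are ratios of signal only.

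Genes of mitotic entry were counted lower in 15 of 15 cases, with a median difference of -3.01. FOXM1, which drives the G2 and mitotic wave, read 5.24, 6.67 and 10.82 in AD32 and 6.98, 10.40, 9.67 and 9.58 in A549, a fitted difference of -3.83 ± 0.50 (SE). Cyclin A2, encoded by CCNA2 and used in both S phase and G2, read 4.49, 6.40 and 9.96 in AD32 and 6.95, 10.31, 10.21 and 10.16 in A549 (-3.86 ± 0.46). The pattern of CCNB1 recurred in its partner cyclin gene CCNB2, at 4.72, 6.49 and 10.33 in AD32 and 7.20, 10.03, 10.63 and 10.61 in A549 (-3.93 ± 0.48). In each of these genes AD32 replicate 1 was the lowest array and AD32 replicate 2 lay between it and the high arrays. The largest difference of the list was that of PBK, a mitotic kinase gene, which read 3.97, 4.89 and 9.87 in AD32 and 7.73, 10.94, 11.13 and 11.07 in A549 (-4.32 ± 0.43). MYBL2, which encodes B-MYB, read 6.02, 6.88 and 10.44 in AD32 and 7.51, 10.57, 10.47 and 10.47 in A549. CDK1 itself read 3.98, 4.85 and 8.08 in AD32 and 6.04, 8.88, 9.23 and 9.10 in A549.

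Promoters of 3 of these genes are shown because they carry the CHR in its textbook place, close before the transcription start. Each stretch is the 160 bases that end 1 base before the start, 5′ to 3′ on the gene's strand, taken from RefSeq promoters of GRCh38.p14. Capitals mark TTTGAA or TTTAAA, the letters searched for the CHR on both strands. PLK1 lies at chr16:23678729-23678888 on the plus strand, CCNB1 at chr5:69166990-69167149 on the plus strand, and CCNB2 at chr15:59104986-59105145 on the plus strand.
PLK1: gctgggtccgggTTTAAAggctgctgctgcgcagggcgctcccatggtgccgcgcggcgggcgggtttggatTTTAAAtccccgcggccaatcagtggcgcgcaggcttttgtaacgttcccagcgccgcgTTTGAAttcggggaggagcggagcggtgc
CCNB1: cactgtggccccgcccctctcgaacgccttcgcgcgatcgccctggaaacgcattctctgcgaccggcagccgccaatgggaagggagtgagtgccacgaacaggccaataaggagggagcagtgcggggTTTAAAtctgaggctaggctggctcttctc
CCNB2: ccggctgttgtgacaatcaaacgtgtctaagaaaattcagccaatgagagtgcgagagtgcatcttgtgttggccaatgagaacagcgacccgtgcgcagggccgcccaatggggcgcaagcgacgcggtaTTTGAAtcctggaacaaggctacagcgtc
The last CHR match of the promoter began 29 bases before the start in PLK1 and CCNB2 and 30 bases before it in CCNB1. The letters CCAAT occurred once in the 300-base PLK1 promoter (250 bases before to 50 after the start), 2 times in that of CCNB1 and 4 times in that of CCNB2.

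Over the mitotic lists and the 5 rule genes together, 88 genes were counted lower and 72 of them had a promoter in the table. A CHR match was present in 66.7% of these 72, against 19.0% of the 14197 measured genes with a promoter and 24.3% of all 27305 promoters of the same 300 bases. CCAAT, searched on both strands, was present in 69.4%, against 36.3% of measured genes. CCAAT was not particular to the mitotic genes. It was present in 55.4% of the replication and G1/S genes counted lower and in 46.0% of the other genes counted lower. Among genes counted higher the share was 39.7%. A match shows only that the letters are there. It describes the lists and does not show that a factor binds.

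Kinetochore and spindle checkpoint genes, which join chromosomes to microtubules and delay anaphase until all are attached, were counted lower in 27 of 30 cases (median -2.94). NUF2, a subunit of the complex that grips microtubules, read 3.72, 4.86 and 9.08 in AD32 and 6.75, 9.81, 10.39 and 10.36 in A549 (-4.08 ± 0.37). The outer kinetochore gene SKA3 had nearly the same difference in both lines, with 4.21, 4.98 and 8.51 in AD32 and 4.86, 8.80, 8.95 and 8.92 in A549 (-3.98 ± 0.20). BUB1B, the checkpoint protein BubR1, read 4.92, 5.92 and 9.63 in AD32 and 5.64, 8.90, 9.46 and 9.49 in A549 (-3.91 ± 0.29). CENPF read 4.83, 5.69 and 9.81 in AD32 and 6.79, 10.39, 10.07 and 10.13 in A549 (-3.95 ± 0.30). No low array overlapped a high array of its line in any of these 4 genes.

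Spindle motors, chromosomal passengers and cytokinesis genes were counted lower in 32 of 34 cases (median -2.97). KIF20A, a kinesin of the central spindle, read 4.49, 5.55 and 9.90 in AD32 and 5.83, 10.07, 10.14 and 10.17 in A549, a ratio of 23.7-fold (-4.57 ± 0.27). DLGAP5, a spindle assembly factor, read 3.96, 5.87 and 10.01 in AD32 and 7.00, 10.31, 10.57 and 10.56 in A549 (-4.24 ± 0.50). KIF14, another kinesin needed for cytokinesis, read 3.84, 5.54 and 9.07 in AD32 and 6.01, 9.72, 9.68 and 9.57 in A549 (-4.0 ± 0.39). The low AD32 arrays differed most from each other in ANLN, the cleavage furrow protein anillin, at 4.66 and 7.85 against 10.61 in replicate 3, with 6.18, 10.25, 10.11 and 10.01 in A549 (-4.14 ± 0.67).

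The anaphase-promoting complex marks mitotic proteins for degradation, and its core subunits were not tested against its partners. Of 12 core subunits, 3 (ANAPC1, ANAPC4 and CDC27) were counted lower, with a median of -0.60, and the scaffold gene ANAPC2 read 8.30, 8.07 and 8.20 in AD32 and 7.63, 7.99, 7.62 and 7.69 in A549. The complex's activator CDC20 read 6.0, 6.57 and 9.67 in AD32 and 7.67, 10.23, 10.73 and 10.68 in A549 (-3.12 ± 0.22). Its ubiquitin-conjugating enzyme UBE2C read 6.63, 6.31 and 9.13 in AD32 and 7.22, 9.21, 9.81 and 9.74 in A549 (-2.51 ± 0.20). Securin (PTTG1), an anaphase target of the complex that holds separase back, differed by -2.20 ± 0.26. Separase itself (ESPL1), which cuts cohesin, differed by -2.46 ± 0.22.

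Condensin and cohesin, the ring complexes that compact chromosomes and hold sister chromatids, also parted. Of 8 condensin subunits 7 were counted lower (median -2.65), all but NCAPH2, which read 7.13, 7.20 and 7.69 in AD32 and 7.08, 7.38, 7.56 and 7.35 in A549. NCAPG read 4.81, 6.17 and 10.07 in AD32 and 6.86, 10.49, 10.53 and 10.41 in A549 (-4.07 ± 0.34). NCAPH read 4.43, 4.56 and 8.64 in AD32 and 6.19, 9.09, 9.12 and 9.21 in A549 (-3.52 ± 0.24). Of 9 core cohesin genes and their loaders 3 were counted lower (SMC1A, SMC3 and STAG1), with a median of -0.54. STAG2, a core cohesin subunit, read 9.08, 9.08 and 9.63 in AD32 and 9.29, 9.50, 9.76 and 9.67 in A549, a fitted difference of -0.45. Regulators of cohesin in S phase had larger differences. ESCO2, the acetyltransferase that locks cohesin at the fork, read 3.33, 3.67 and 8.59 in AD32 and 4.55, 9.51, 9.36 and 9.28 in A549 (-4.95 ± 0.15). Sororin, encoded by CDCA5, had a difference of -3.13 ± 0.19. The difference between the complexes is given by counts and medians and was not tested.

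Replication genes were counted lower in 40 of 47 cases (median -2.14). All 6 subunits of the MCM helicase that unwinds DNA were counted lower (median -2.91), as were all 5 genes of its partners GINS and CDC45 (median -3.23) and 4 of the 6 origin recognition subunits (median -1.50). CLSPN, the fork protein claspin, read 3.86, 4.37 and 9.53 in AD32 and 4.34, 9.89, 9.37 and 9.24 in A549, a ratio of 38.9-fold (-5.28 ± 0.22), or -4.38 with the mean of its probe sets. CDC6, which loads the helicase at origins, read 5.50, 7.51 and 10.99 in AD32 and 6.06, 11.29, 10.74 and 10.68 in A549 (-4.68 ± 0.45). MCM10 read 5.20, 5.34 and 9.09 in AD32 and 5.89, 10.39, 10.14 and 10.12 in A549 (-4.09 ± 0.16). GINS1 read 6.14, 7.09 and 10.40 in AD32 and 6.96, 10.54, 10.84 and 10.60 in A549 (-3.74 ± 0.24). For CLSPN, CDC6 and GINS1 the A549 low array lay between the AD32 low arrays. PCNA, the sliding clamp, differed less, with 9.45, 9.69 and 10.88 in AD32 and 9.05, 10.87, 10.84 and 10.78 in A549 (-1.56 ± 0.16).

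The promoters of MCM6 and PCNA are shown for the E2F letters that set replication genes apart from mitotic ones. Both lie on the minus strand of GRCh38.p14, MCM6 at chr2:135876444-135876603 and PCNA at chr20:5126623-5126782, and are written on the gene's strand up to 1 base before the start. Capitals mark TTTCCCGC, TTTCGCGC, TTTGCCGC or TTTGGCGC on either strand, and in MCM6 a match on each strand overlaps to form each of the capital runs.
MCM6: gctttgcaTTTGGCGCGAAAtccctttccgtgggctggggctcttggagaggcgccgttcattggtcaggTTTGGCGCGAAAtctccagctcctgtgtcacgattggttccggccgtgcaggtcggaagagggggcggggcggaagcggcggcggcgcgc
PCNA: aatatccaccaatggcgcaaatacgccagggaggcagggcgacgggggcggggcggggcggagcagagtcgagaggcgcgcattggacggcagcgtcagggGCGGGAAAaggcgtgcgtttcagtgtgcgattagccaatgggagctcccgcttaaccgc
Of 56 counted replication, nucleotide and G1/S genes with a promoter, 48.2% had an E2F match and 12.5% a CHR match. In the 72 mitotic genes the shares were 8.3% and 66.7%, and in all measured genes 4.5% and 19.0%. The 550 other genes counted lower had an E2F match in 11.6% and a CHR match in 26.2%, and the 204 counted higher in 2.5% and 20.6%. MCM6 itself read 6.88, 7.95 and 10.44 in AD32 and 7.77, 10.91, 10.68 and 10.67 in A549.

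Enzymes that make the DNA building blocks were counted lower in 7 of 7 measured cases. RRM2, the S phase subunit of ribonucleotide reductase, read 5.67, 5.28 and 9.51 in AD32 and 5.21, 9.84, 9.82 and 9.43 in A549 (-4.28 ± 0.19). Its partner RRM1, the larger subunit, had a smaller difference, with 8.92, 9.75 and 11.18 in AD32 and 8.57, 11.11, 10.90 and 10.84 in A549 (-2.13 ± 0.23). Thymidylate synthase (TYMS) read 7.84, 8.84 and 11.12 in AD32 and 7.88, 10.70, 10.59 and 10.55 in A549 (-2.75 ± 0.24). Thymidine kinase (TK1) was lower by -2.24 ± 0.16.

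Regulators of the step from G1 to S were counted lower in 18 of 19 cases (median -2.01). The E-type cyclin gene CCNE2 read 4.17, 5.10 and 7.90 in AD32 and 4.71, 8.67, 8.50 and 8.46 in A549 (-3.56 ± 0.25). The histone chaperones ASF1B and CHAF1B, which pack new DNA, were lower by -3.50 ± 0.23 and -2.63 ± 0.17. The maintenance methyltransferase gene DNMT1 read 7.30, 7.81 and 9.66 in AD32 and 7.59, 9.76, 9.41 and 9.37 in A549. E2F1 read 6.97, 6.59 and 8.01 in AD32 and 6.72, 7.96, 7.78 and 7.83 in A549 (-1.18 ± 0.15). EZH2, the Polycomb methyltransferase, differed by -0.51 in AD32 and by -1.86 in A549, an interaction of 1.35 ± 0.29 that did not pass the test (limma adjusted p = 0.118).

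Homologous recombination and cross-link repair genes were counted lower in 15 of 19 cases (median -2.64). EXO1, a nuclease that resects DNA ends, read 5.33, 5.72 and 9.83 in AD32 and 6.89, 10.86, 10.86 and 10.85 in A549 (-4.13 ± 0.16). BRCA1 read 4.32, 5.89 and 8.80 in AD32 and 6.32, 9.39, 9.10 and 9.13 in A549 (-3.27 ± 0.37). The helicase gene BLM read 4.78, 4.72 and 8.80 in AD32 and 5.26, 8.75, 8.81 and 8.62 in A549 (-3.74 ± 0.16). Checkpoint genes were more mixed, with 4 of 9 counted lower. CHEK1, the kinase that guards stalled forks, had a difference of -2.12 ± 0.22 and its activator TOPBP1 one of -2.27 ± 0.21. The double-strand break kinases were not counted: ATM read 7.25, 8.27 and 7.92 in AD32 and 7.75, 8.41, 8.07 and 8.08 in A549, and CHEK2 read 6.15, 6.93 and 6.41 in AD32 and 6.64, 6.73, 6.99 and 7.11 in A549.

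Of the nuclear envelope and chromatin genes 13 of 16 were counted lower. MKI67, the proliferation marker Ki-67 that coats mitotic chromosomes, read 5.51, 5.87 and 9.93 in AD32 and 6.42, 10.63, 9.88 and 9.90 in A549 (-3.96 ± 0.24). Lamin B1 (LMNB1) read 6.50, 7.53 and 10.00 in AD32 and 7.71, 10.15, 10.23 and 10.18 in A549 (-2.71 ± 0.26). STMN1, the microtubule-destabilising protein stathmin, was lower by -2.13 ± 0.18 at the probe set used, while its other, dimmer probe set differed by 0.20 in AD32 and -0.64 in A549. Replication-dependent histone genes were counted lower in 21 of 43 cases (median -1.07). H2BC14 read 8.50, 8.32 and 12.30 in AD32 and 10.16, 12.54, 12.51 and 12.48 in A549 (-3.08 ± 0.29). These genes are near-identical copies of each other, so signals of single members are uncertain.

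Of 18 CDK inhibitor, retinoblastoma and DREAM genes, the brakes of the cell cycle, 3 were counted lower and 0 higher (median -0.03). The shares of all genes were 4.51% and 1.53%. Without A549 DMSO replicate 1 the list's median was 0.17, with 3 lower and 2 higher. Without AD32 replicate 3 it was -0.52, with 4 lower and 0 higher. The 3 were CDKN3, a phosphatase gene that peaks late in the cycle (-2.65 ± 0.33), RBL1, the p107 member that E2F itself induces (-2.08 ± 0.19), and LIN9, a MuvB core gene (-1.85 ± 0.38, or -1.23 without A549 DMSO replicate 1). CDKN1A, the inhibitor p21, read 10.28, 10.45 and 9.0 in AD32 and 8.64, 7.59, 8.35 and 8.36 in A549, and its fitted difference of 0.93 ± 0.26 stayed under the 2-fold limit. The inhibitor p27, encoded by CDKN1B, had 0.53 ± 0.19. RB1 read 8.27, 8.98 and 7.19 in AD32 and 7.82, 8.85, 8.49 and 8.38 in A549, so the lines went opposite ways in these values. Its interaction of 2.19 ± 0.44 rests on 1 high AD32 array and 1 low A549 array and did not pass the test.

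Among 19 genes of G1 and cell cycle exit 2 were counted lower and 2 higher, against 4.51% and 1.53% of all genes. The lower count was 1 without AD32 replicate 3 or without A549 DMSO replicate 1. The D-type cyclin gene CCND3 read 7.68, 7.55 and 9.82 in AD32 and 8.29, 9.02, 9.31 and 9.21 in A549 (-1.51 ± 0.26), and its kinase CDK6 had -1.24 ± 0.32. Without A549 DMSO replicate 1 CDK6 had -0.80, and without AD32 replicate 3 CCND3 had -0.89. BTG1, an antiproliferative gene abundant in resting cells, was higher by 1.30 ± 0.16, at 11.78, 11.71 and 10.22 in AD32 and 11.46, 10.17, 10.45 and 10.50 in A549. GAS6, found as a gene raised on growth arrest, had 1.09 ± 0.14. CCND1 was not counted at -0.58 ± 0.14. MYC read 8.68, 8.18 and 9.93 in AD32 and 9.40, 9.50, 9.47 and 9.63 in A549, differences of -1.50 and -0.13. Their interaction of -1.37 ± 0.33 did not pass the test (limma adjusted p = 0.152), which does not show that the lines are alike.

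**Figure D2:**
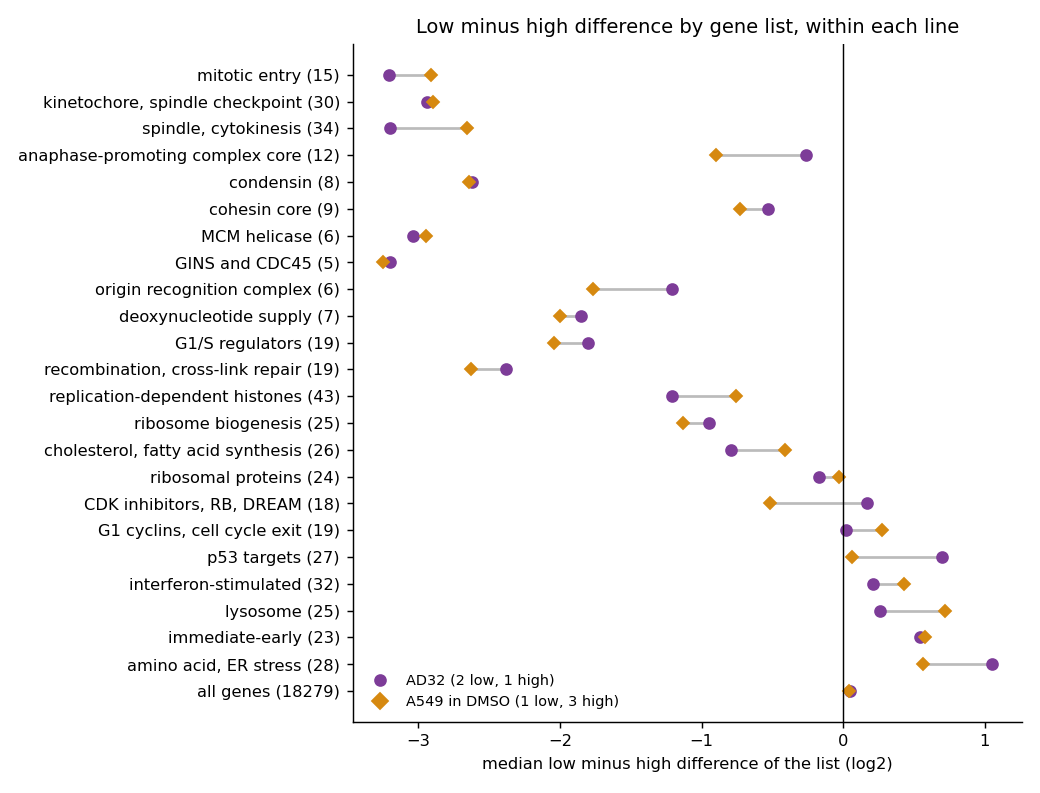
Median low minus high difference (log2, horizontal axis) of the genes in each list, shown within AD32 (circles, 2 low and 1 high array) and within A549 in DMSO (diamonds, 1 low and 3 high arrays), with the number of measured genes in parentheses. Mitotic entry, kinetochore, spindle, condensin, MCM and GINS lists lie between -3.25 and -2.62 in both lines, cohesin and the anaphase-promoting complex core lie between -0.90 and -0.26, and the amino acid and ER stress list lies above 0 in both.

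Genes of ribosome biogenesis were lower in part. Of 25 nucleolar genes 14 were counted lower (median -1.05), or 8 after a further quantile normalization, and all 25 had a fitted difference below 0. UTP20, a factor of early small-subunit assembly, read 7.93, 8.15 and 9.68 in AD32 and 7.26, 9.41, 9.36 and 9.27 in A549 (-1.87 ± 0.15). RRS1 read 7.41, 7.68 and 8.74 in AD32 and 6.89, 9.08, 9.25 and 9.24 in A549 (-1.78 ± 0.23). The ribosomal proteins themselves were counted in 0 of 24 cases, with a median of -0.18. Over all genes 4.51% were counted lower and 1.53% higher, so this 0 is near the background. Without A549 DMSO replicate 1, 2 of the 24 were counted lower. Means of the nucleolar list ran from 8.77 to 8.96 on the low arrays and from 9.77 to 10.03 on the high ones.

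Fewer genes were higher on the low arrays, and the clearest listed group was that of amino acid and endoplasmic reticulum stress. Of its 28 genes 10 were counted higher (median 0.88) and 0 lower, against 1.53% and 4.51% of all genes. The count higher was 7 without AD32 replicate 3 (median 0.56) and 14, with 1 lower, without A549 DMSO replicate 1. It was 8 with array weights and 15 after a further quantile normalization. DDIT3, the stress factor CHOP, read 10.99, 11.09 and 6.89 in AD32 and 9.81, 6.20, 7.91 and 8.12 in A549 (3.22 ± 0.54, 9.31-fold). TRIB3, a pseudokinase that CHOP and ATF4 induce, read 10.51, 10.36 and 7.83 in AD32 and 10.47, 7.74, 8.61 and 8.63 in A549 (2.36 ± 0.25). CHAC1, which breaks down glutathione, read 9.61, 9.03 and 7.21 in AD32 and 8.88, 6.50, 7.30 and 7.25 in A549 (1.98 ± 0.25). In all of these A549 DMSO replicate 2 read lowest among the A549 arrays, under replicates 3 and 4. DDIT4, an inhibitor of the growth kinase mTORC1, had 1.74 ± 0.23, and ASNS, asparagine synthetase, 1.26 ± 0.23. The remaining counted members were NUPR1, PPP1R15A, PSAT1, STC2 and XBP1. PSAT1 parted little in A549, at 11.52 on the low array against 10.29, 11.38 and 11.31 on the high arrays.

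Of 27 p53 targets 4 were counted higher (GADD45A, GDF15, TP53INP1 and ZMAT3), against 1.53% of all genes, or 8 after a further quantile normalization or without A549 DMSO replicate 1, 7 without A549 DMSO replicate 3 and 2 higher with 3 lower without AD32 replicate 3. GDF15, a stress cytokine gene, read 12.33, 12.21 and 9.47 in AD32 and 10.44, 7.08, 8.42 and 8.74 in A549 (2.57 ± 0.39). The list's median was 0.70 within AD32 and 0.06 within A549. MDM2, the p53 antagonist that p53 induces, read 12.14, 12.57 and 11.74 in AD32 and 9.97, 10.49, 10.79 and 10.84 in A549, higher on the low AD32 arrays and lowest on the low A549 array. Immediate-early genes were counted higher in 4 of 23 cases, also against 1.53%, or 2 without A549 DMSO replicate 2. The ERK phosphatase gene DUSP5 had 1.65 ± 0.32, PHLDA1 1.24 ± 0.21, SPRY2, an inhibitor of growth factor signalling, 1.04 ± 0.25, and FOS 1.04 ± 0.21. Without AD32 replicate 3 DUSP5 had 1.06, and without A549 DMSO replicate 1 FOS had 0.52.

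Of 32 interferon-stimulated genes 3 were counted higher, or 6 without AD32 replicate 3, and OAS3 was counted lower. Over all genes 1.53% were counted higher and 4.51% lower, and the lists of this paragraph were not tested against these shares. IFI6 read 7.59, 7.16 and 6.01 in AD32 and 9.14, 8.04, 7.93 and 8.04 in A549 (1.25 ± 0.16). BST2, the tetherin gene, had gaps of 0.52 in AD32 and 2.27 in A549, with 5.13, 4.68 and 4.39 in AD32 and 6.99, 4.47, 4.91 and 4.76 in A549. Of 25 lysosomal genes 3 had a fitted difference below 0, and the median was 0.47. GAA, the glycogen-degrading glucosidase, was counted higher at 1.34 ± 0.26 (0.81 without A549 DMSO replicate 1) and GLA, an alpha-galactosidase, lower at -1.54 ± 0.24. The count higher was 4 after a further quantile normalization, 2 without A549 DMSO replicate 1 and 6 without AD32 replicate 3. Of 34 secreted factors 2 were counted higher, STC1 at 1.81 ± 0.21 and VEGFA at 1.16 ± 0.17, and the chemokine gene CCL2 was counted lower. CCL2 differed by -2.27 in AD32 and by -0.24 in A549. Leaving out A549 DMSO replicate 1 gave 5 and 2 for the list, and without AD32 replicate 2 CCL2 was not counted.

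Of 26 cholesterol and fatty acid genes 3 were counted lower, EBP, FADS2 and SQLE, against 4.51% of all genes. The count was 5 without AD32 replicate 2, 6 with array weights and 9 without A549 DMSO replicate 1. SQLE, which makes squalene epoxide, read 8.49, 9.15 and 10.19 in AD32 and 9.44, 10.56, 10.62 and 10.69 in A549 (-1.27 ± 0.19). FADS2, a fatty acid desaturase, differed by -2.43 in AD32 and by -0.44 in A549. Epithelial markers and cap-binding translation genes had 0 counted members of 20 and 19, near the shares of all genes (4.51% lower and 1.53% higher). Without AD32 replicate 3, 2 epithelial markers were counted higher. EIF4EBP1, the translation repressor that names the remaining line, read 8.93, 7.99 and 8.63 in AD32 and 10.23, 9.50, 9.47 and 9.52 in A549 and was not counted (0.31 ± 0.27).

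Among genes in no list, PCLAF, the PCNA-associated factor, read 4.49, 5.31 and 11.15 in AD32 and 6.61, 11.14, 11.53 and 11.45 in A549, a ratio of 44.1-fold (-5.46 ± 0.34). Its other, dimmer probe set differed by -1.86 in AD32 and -1.18 in A549, and the mean of both gave -3.48. FAM111B read 3.88, 4.54 and 8.95 in AD32 and 5.05, 9.55, 8.97 and 9.08 in A549 (-4.43 ± 0.24). DTL, a ubiquitin ligase adaptor that clears CDT1 in S phase, had -4.11 ± 0.36, and TICRR, which helps fire origins, -3.90 ± 0.25. SHCBP1, TRIP13, ERCC6L, DEPDC1, CIP2A and DDIAS followed, between -4.26 and -3.44.

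Among genes in no list that were counted higher, ARG2, the mitochondrial arginase, read 9.53, 9.05 and 6.19 in AD32 and 9.72, 6.07, 6.53 and 6.56 in A549, a ratio of 9.34-fold (3.22 ± 0.20), and with DDIT3 it was 1 of the 2 genes at least 8-fold higher. TCP11L2 had the most even difference, with 9.24, 9.14 and 6.61 in AD32 and 9.18, 6.55, 6.51 and 6.37 in A549 (2.65 ± 0.13). DEPTOR, an inhibitor of mTOR, read 8.52, 7.74 and 6.37 in AD32 and 9.49, 6.65, 6.21 and 6.42 in A549 (2.45 ± 0.31). CLGN, a chaperone of the endoplasmic reticulum, read 10.78, 10.79 and 7.03 in AD32 and 8.97, 6.72, 7.03 and 6.87 in A549 (2.88 ± 0.31). Both lines thus contributed to these 4. SLFN5 and GBP2, each known as interferon-responsive, had 2.38 ± 0.22 and 2.57 ± 0.28. The selenium carrier SELENOP had 2.37 ± 0.39, though its A549 high arrays at 2.94 to 3.27 lay well under the lower quartile.

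**Figure D3:**
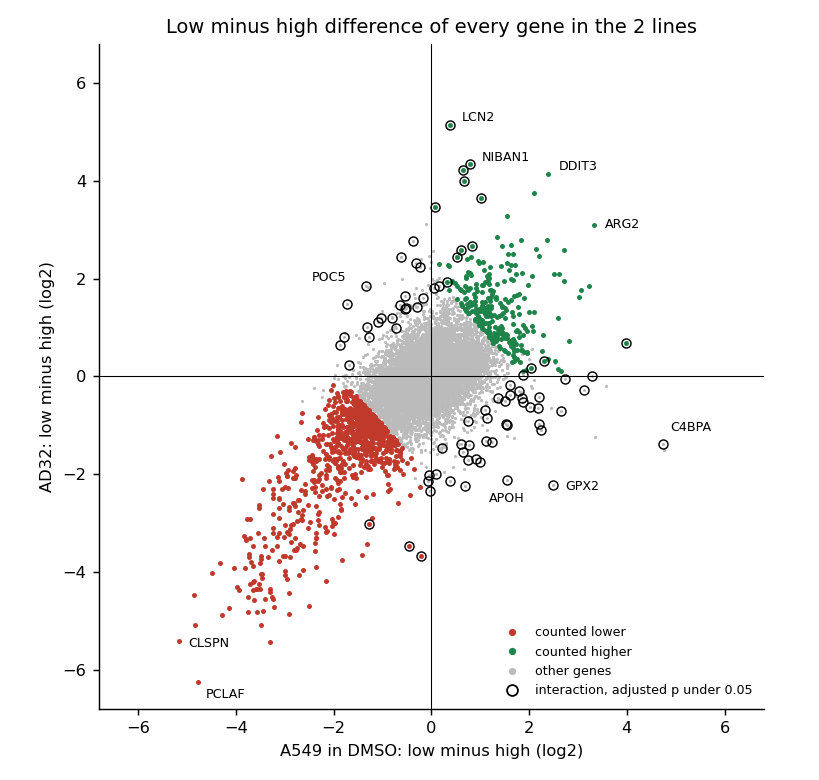
Low minus high difference (log2) of each of 18279 genes within A549 in DMSO (horizontal axis) and within AD32 (vertical axis), which use separate arrays. Genes counted lower (824) are red and genes counted higher (279) are green, and 87 genes whose difference differed between the lines by limma are circled. PCLAF and CLSPN lie at the lower left, C4BPA and GPX2 at the right below 0, and LCN2 at the top near 0 in A549.

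The state of the arrays also bore on the comparison of the lines, which the labels define and the split did not use. AD32 was in 32 nM discodermolide and A549 in DMSO, so differences of line and of drug cannot be told apart in it. With state in the model, limma called 774 genes (4.23%) higher and 561 (3.07%) lower in AD32 than in A549 in DMSO, at an adjusted p under 0.05. Without state it called 457 and 283. Of the 740 genes called without state, 738 were also called with it, and 597 were called only with it, while the median SE of a line difference went from 0.186 to 0.166. The counts leaned on single arrays. Averaging the near-identical A549 DMSO replicates 3 and 4 left 766 calls, and leaving out A549 DMSO replicate 1, 3 or 4 left 610, 770 or 735. Without AD32 replicate 1 there were 888.

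The largest line differences were mostly called with or without state. SERPINB5, the serpin maspin, read 10.83, 10.46 and 9.49 in AD32 and 3.68, 3.73, 4.26 and 3.81 in A549, a difference of 6.22 ± 0.30 with state (limma adjusted p = 1.75e-05; 5.81e-05 without). SLPI, a secreted protease inhibitor, read 11.14, 10.80 and 10.71 in AD32 and 5.95, 5.96, 5.81 and 6.12 in A549 (4.87 ± 0.16, limma adjusted p = 3.21e-06). The neuropeptide gene NTS was lower in AD32, at 4.19, 5.96 and 3.63 against 10.39, 11.74, 10.45 and 10.58 (-6.36 ± 0.58, limma adjusted p = 0.000539). EPHA3, an ephrin receptor, read 4.89, 4.97 and 4.92 in AD32 and 9.80, 9.42, 9.86 and 9.95 in A549 (-4.84 ± 0.17, limma adjusted p = 3.84e-06). No array of one line overlapped the other in these genes. MAGEB2, GDA and CEACAM6 completed the largest on the higher side, at 6.11, 5.04 and 5.35, and FGL1, KCNE4 and TRPA1 those on the lower side, at -4.42, -4.29 and -3.76. Of these 10, FGL1 was not called without state (limma adjusted p = 0.0102 with and 0.07 without).

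FGL1, THBS1, PDK4 and PDE3A had the largest line differences among the calls gained with state. PDK4, which restrains glucose oxidation, read 9.95, 10.23 and 8.03 in AD32 and 12.73, 11.08, 10.41 and 10.54 in A549. It was higher on the low arrays by 2.05 in each line, and its line difference of -2.64 ± 0.20 had a limma adjusted p of 0.000171 with state and 0.227 without. THBS1, the matrix protein thrombospondin 1, read 9.98, 10.15 and 12.09 in AD32 and 7.95, 9.65, 8.57 and 8.36 in A549, and its p changed from 0.0953 to 0.004 (limma, adjusted). PDE3A, a phosphodiesterase, had a line difference of -2.39 ± 0.36 with state (limma adjusted p = 0.00736) against 0.176 without. A single line difference describes PDE3A and FGL1 poorly. That of PDE3A was -1.35 on the low arrays and -3.32 on the high arrays, and that of FGL1 -6.41 and -2.65. The 2 calls lost, ERICH5 and PAG1, lay near the threshold in both fits, with limma adjusted p of 0.0514 and 0.0533 with state and 0.0496 and 0.0499 without.

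CCND1, CDKN1A and EIF4EBP1, named whatever their values, also gained line calls with state, and none of the 5 genes that chose the arrays did. CCND1 read 10.97, 10.86 and 11.44 in AD32 and 9.95, 10.75, 10.48 and 10.49 in A549, a line difference of 0.91 ± 0.14 with a limma adjusted p of 0.00755 with state and 0.168 without, and 0.0539 when A549 DMSO replicate 1 was left out. CDKN1A was higher in AD32 by 1.29 ± 0.26, with a limma adjusted p of 0.0216 with state and 0.0562 without. That call was lost when AD32 replicate 1 (0.0657) or A549 DMSO replicate 1 (0.178) was left out. EIF4EBP1 was lower in AD32 by -1.29 ± 0.27 (limma adjusted p = 0.0266 with state, 0.0619 without), and leaving out A549 DMSO replicate 1, 2, 3 or 4 gave 0.213, 0.0545, 0.0525 or 0.0553.

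Against 4.23% of all genes, 15 of 27 p53 targets were called higher in AD32 than in A549 with state in the model, and 0 lower. Among them, MDM2 was higher by 1.66 ± 0.29 (limma adjusted p = 0.012), GDF15 by 1.60 ± 0.39 (0.0424) and GADD45A by 1.14 ± 0.28 (0.0444). Without state 9 of the 27 were called, and GDF15 (0.17) and GADD45A (0.124) were not. The p53 list's mean was 9.78 and 9.56 on A549 in discodermolide and 8.21 to 8.57 on A549 in DMSO. It was 8.42 on AD32 4E-BP1 in DMSO. Whether these calls go with the line or with the drug cannot be told apart. Of 20 epithelial markers 7 rose (CDH1, DSP, JUP, KRT7, KRT8, PKP2 and TJP1) and 0 fell, and without state 4 were called. Of 32 interferon-stimulated genes 6 fell and 2 rose with state, and 4 fell and 2 rose without. Line calls among cell cycle genes are not described by list, since state was set from mitotic genes and the low AD32 arrays (means of 5.79 and 7.18 over the 5 genes) lay under the low A549 array (7.80).

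For 87 genes (0.476%) the low minus high difference itself differed between AD32 and A549, by the interaction of line and state in limma at an adjusted p under 0.05, while 2604 had an unadjusted p under 0.05. This test rests on 1 high AD32 array and 1 low A549 array, assumed to vary like the rest. What is particular to a line, to its drug or to those arrays thus cannot be told apart. The count was 821 when AD32 replicate 1 was left out and 45 when AD32 replicate 2 was. Omitting replicate 2, 3 or 4 of A549 in DMSO gave 57, 28 or 32. Averaging A549 DMSO replicates 3 and 4 gave 28, and array weights gave 1183. Of the 87, 62 had differences of opposite sign in the lines: 24 were higher on the low arrays of AD32 and lower on that of A549, and 38 the reverse. Of the 282 genes in the cell cycle lists, 0 were among the 87, against 0.476% of all genes. This 0 is near that share and does not show that the lines were alike in these genes.

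Some of these genes were higher on the low array of A549 but not on those of AD32. C4BPA, a soluble complement inhibitor, read 10.66 on A549 DMSO replicate 1 against 6.51, 5.89 and 5.41 on the others, and 6.16, 6.32 and 7.62 in AD32 (interaction -6.11 ± 0.52, limma adjusted p = 0.00999). C3, the central complement protein, read 9.62 against 6.48, 6.57 and 6.43, and was high on all AD32 arrays at 10.88, 11.38 and 11.41 (-3.40 ± 0.33, limma adjusted p = 0.0117). CEACAM1, an adhesion molecule, read 8.42 against 5.95, 5.63 and 5.72, with 6.43, 6.39 and 7.11 in AD32 (-3.35 ± 0.28, limma adjusted p = 0.00999). GPX2, the gut and airway glutathione peroxidase, went opposite ways, with 12.13 against 9.95, 9.43 and 9.56 in A549, and 10.10 and 9.64 against 12.08 in AD32 (-4.70 ± 0.38, limma adjusted p = 0.00999). APOH and GASK1B had the same form, with interactions of -3.67 ± 0.35 and -3.19 ± 0.31.

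Others were higher on the low arrays of AD32. TXNIP, a glucose-induced inhibitor of thioredoxin, read 10.88 and 11.39 against 7.14 in AD32, and 5.61 against 5.0, 4.92 and 4.90 in A549 (3.32 ± 0.33, limma adjusted p = 0.0117). NIBAN1, a stress-induced gene, read 10.29 and 10.28 against 5.95 in AD32, and 9.56 against 8.93, 8.68 and 8.66 in A549 (3.54 ± 0.27, limma adjusted p = 0.00999). IGFBP1, which binds insulin-like growth factors, read 11.48 and 11.35 against 7.77 in AD32 and 8.22 against 7.17, 7.16 and 7.27 in A549 (2.62 ± 0.26, limma adjusted p = 0.0117). POC5, a centriole protein gene, read 9.58 and 9.92 against 7.91 in AD32 and 6.39 against 7.66, 7.86 and 7.64 in A549 (3.17 ± 0.30, limma adjusted p = 0.0117). All 10 named interaction genes kept their call in each of the 5 fits that left out an array. AD32 replicate 3 and A549 DMSO replicate 1, on which the test rests, could not be left out, so these fits do not bear on them. With the mean of the 5 mitotic genes in place of the split, TXNIP, NIBAN1, IGFBP1 and POC5 did not pass (limma adjusted p 0.0627 to 0.236), and the other 6 did.

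**Figure D4:**
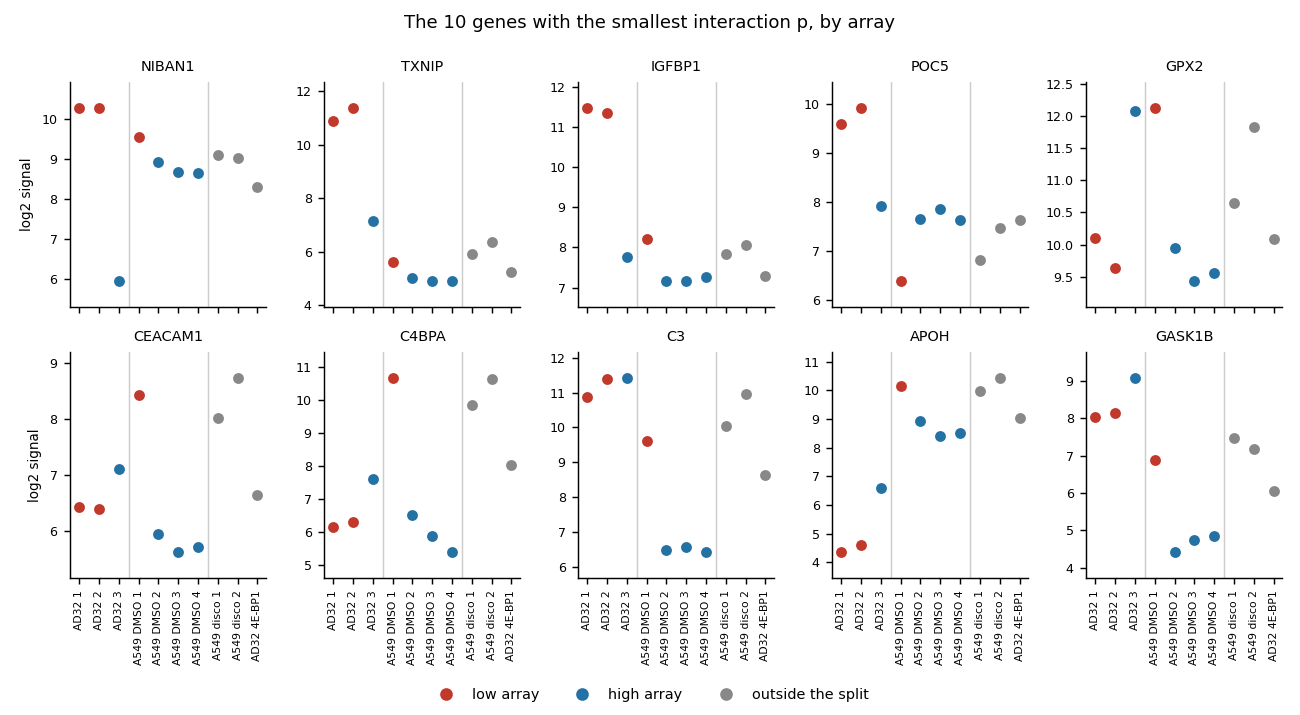
Deposited log2 signal of the 10 genes with the smallest interaction p on each array, with low arrays in red, high arrays in blue and arrays outside the split in grey. The single high AD32 array stands apart for NIBAN1 at 5.95 and the single low A549 array for C4BPA at 10.66, where the discodermolide arrays read 9.85 and 10.63.

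The arrays outside the split are set beside these values without a test, since a comparison with A549 in DMSO would share its arrays. The means of the 5 mitotic genes were 7.71 and 7.92 on the A549 discodermolide arrays and 10.74 on the AD32 4E-BP1 array. Over the spindle and cytokinesis list the mean level was 6.70 and 6.81 on the discodermolide arrays, beside 6.92 on A549 DMSO replicate 1 and 9.54 to 9.60 on the other DMSO arrays. Over the MCM genes it was 7.83 and 7.64, beside 7.31 on A549 DMSO replicate 1 and 10.20 to 10.52 on the others. In these lists A549 DMSO replicate 1 and the drug-treated arrays were alike in level. Over the p53 targets they were not: the discodermolide arrays had means of 9.78 and 9.56, and A549 DMSO replicate 1 had 8.49, within the 8.21 to 8.57 of the other DMSO arrays. CDKN1A read 10.21 and 9.79 on the discodermolide arrays and 8.64 on A549 DMSO replicate 1.

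Single genes divided in the same way. C4BPA (9.85 and 10.63), CEACAM1 (8.02 and 8.72) and C3 (10.04 and 10.97) read high on the discodermolide arrays, near A549 DMSO replicate 1. ARG2 (6.87 and 8.0) and the collagen receptor gene ITGA10 (5.40 and 6.35) read lower there than the 9.72 and 9.29 of A549 DMSO replicate 1. Over the interferon list the second discodermolide array stood apart at a mean of 7.82, against 6.60 on the first and 6.58 on A549 DMSO replicate 1. The AD32 4E-BP1 array read near the A549 arrays in some line genes, with 3.92 for SERPINB5, 3.73 for MAGEB2 and 9.23 for EPHA3. Not all did so: NTS at 7.62 lay between the lines, and C3 at 8.62 lay above the high A549 arrays. The correlation of the AD32 4E-BP1 array with A549 DMSO replicate 2 was 0.9955. EIF4EBP1 read 11.61 on the AD32 4E-BP1 array.

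**Figure D5:**
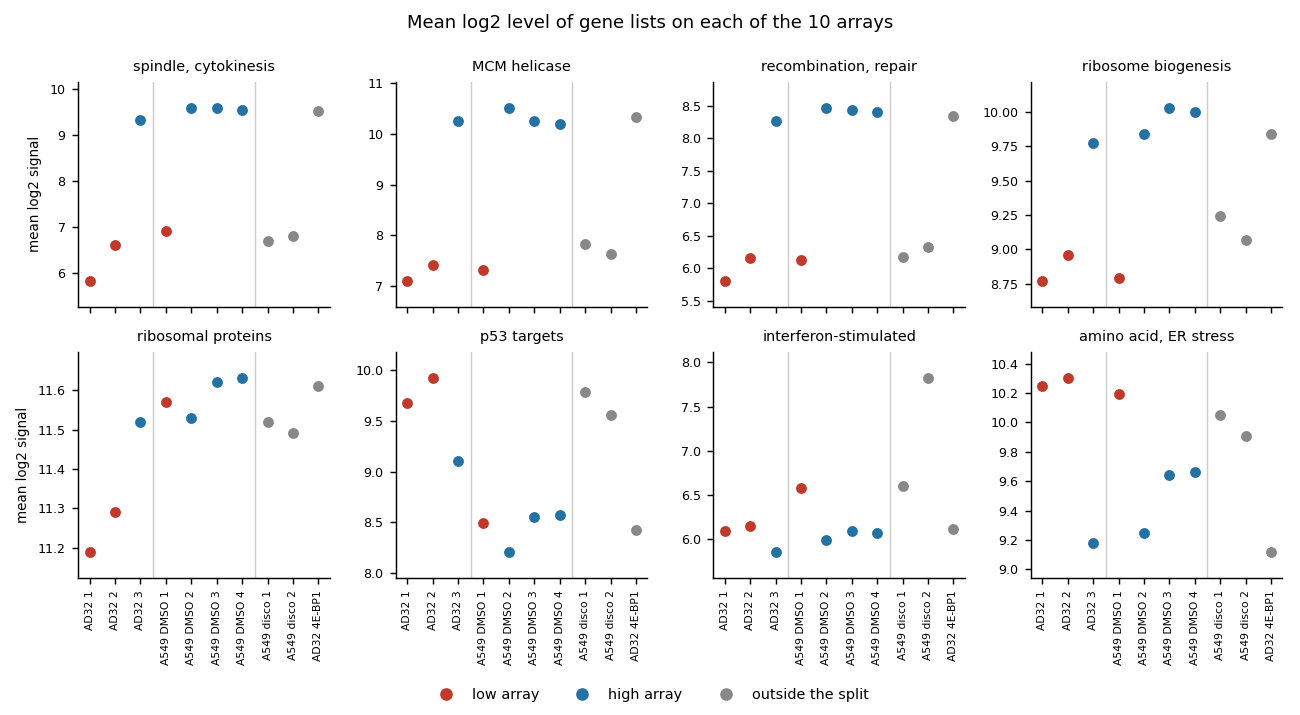
Mean log2 level (vertical axes, which differ between panels and do not start at 0) of 8 gene lists on each of the 10 arrays, with low arrays in red, high arrays in blue and arrays outside the split in grey. Spindle, MCM and repair genes divide the arrays in the same way, while p53 targets are at 9.56 to 9.92 on the discodermolide and low AD32 arrays and at 8.49 on the low A549 array.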

How the data were processed

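The 10 deposited arrays hold log2 values for 24308 probe sets. Per the submitters' processing notes, the authors used Affymetrix Expression Console, whose version and summarisation method were not given in the sources used here. The scale was judged from the range of values. Array medians lay between 6.50 and 6.63. Of the probe sets, 19262 name 1 gene, 1720 several and 3326 none, and the first were used. Among 18279 genes, 740 had over 1 probe set, and that with the highest mean was taken.

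Fits used limma 3.58.1 (lmFit, eBayes) in R 4.3.3, with two-sided p-values adjusted by Benjamini-Hochberg across the 18279 genes and a threshold of 0.05. On simulated data with 200 of 18279 genes changed, 56.5% of line differences and 0% of interactions of log2 size 1 were recovered, and 95.5% and 46.0% at size 2.

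Named genes were the 5 rule genes, up to 4 counted members of each list by size, the 10 largest unlisted in each direction, the 5 largest line differences in each direction, the 10 smallest interaction p-values, the 4 largest line calls gained or lost with state, and MKI67, CDKN1A, CDKN1B, CCND1, EIF4EBP1, TXNIP and MYC. CDK1, MYBL2, MCM6, PCNA, CDC45, DNMT1, E2F1, EZH2, ANAPC2, NCAPH2, STAG2, ATM, CHEK2, RB1, MDM2, ASNS, PSAT1 and the cell type markers were added as examples. The arrays, the gene lists and these choices were made with earlier results of these data known. Alternatives changed the scaling (quantile, median), left out the lowest-expressed genes, averaged a gene's probe sets, and used array weights, a trended robust prior, averaged replicates, other fold limits, a continuous covariate, a replicate block and each array left out. Promoter sequences came from RefSeq (GRCh38.p14).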

Additional observations from a re-analysis of the deposited data

Results flagged for a closer look

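Under Dixon's criterion chance alone flags about 1 in 20 groups of independent arrays. By it A549 DMSO replicate 1 stood apart from the other 3 arrays of its group in 20 of 42 summaries tested. Its mean over the 5 mitotic genes was 7.80, the value that made it a low array, so the cell cycle lists stood apart by construction. Its list means were 6.91 for mitotic entry, 6.12 for kinetochore and checkpoint, 6.92 for spindle and cytokinesis, 7.71 for mitotic exit and 7.69 for condensin and cohesin. They were 6.96 for origins and forks, 7.08 for nucleotide supply, 7.10 for G1/S regulators, 6.13 for recombination and repair, 7.26 for checkpoint kinases, 8.94 for nuclear envelope and chromatin and 7.12 for histones.

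Lists outside the cell cycle proper stood apart on the same array. The means were 7.79 for CDK inhibitors and the retinoblastoma family, 8.29 for G1 cyclins and cell cycle exit, 8.79 for ribosome biogenesis, 9.70 for lysosomal genes and 6.58 for interferon-stimulated genes. Among the single genes named whatever their value, EIF4EBP1 at 10.23 and TXNIP at 5.61 were above the other A549 DMSO arrays. Over all genes the criterion was met by 2503 of 18279 (13.7%), whichever array of the group stood apart. The 1 in 20 holds for independent arrays. A549 DMSO replicates 3 and 4 were nearly identical, so it is no reference for this share.

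The low minus high difference differed between AD32 and A549 for 87 genes, by the interaction test in limma.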

How the results depend on the processing

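With 3 low and 4 high arrays, each count turned on few samples. Counts of lower and higher genes were 215 and 27 at a 4-fold limit and 1920 and 1086 at a 1.5-fold limit. Leaving out 1 array gave 798 to 1293 lower and 275 to 516 higher genes, 351 to 1070 higher and 259 to 733 lower line calls, and 28 to 821 interactions. Higher line calls were 498 with array weights. Averaging A549 DMSO replicates 3 and 4 gave 461 higher and 305 lower line calls and 28 interactions. Without state there were 457 and 283. With the mean of the 5 mitotic genes as a continuous covariate, lower line calls were 343 and interactions 36. Interactions were 50 without the lowest-expressed genes and 1183 with array weights. Of 79 alternative counts, 48 stayed within 1.5 times. Among the named genes, no value that was called or counted changed sign. For counted genes the counting rule fixed this in advance wherever an array was left out. The uncounted low minus high difference of EIF4EBP1 went from 0.31 to -0.44 with a replicate block and to -0.17 without A549 DMSO replicate 1. With a replicate block the line calls fell to 133 higher and 89 lower, and CDKN1A, CCND1, EIF4EBP1, FGL1, C3 and PDE3A lost theirs. Deviations of same-numbered arrays correlated at 0.68, -0.26 and 0.41 for replicates 1, 2 and 3. AD32 replicate 2, also low, correlated at 0.17 with A549 DMSO replicate 1. Both replicate 1 arrays were low and both replicate 3 arrays high. Whether the replicate numbers pair the arrays thus cannot be told apart from the split.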
